A study of Mus musculus with 16 samples.

Results

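The genes described here encode chains of the receptors through which T cells sense cytokines. They were listed by symbol, and every probe set that the platform's annotation assigns to a listed symbol was taken. Of the 10 listed genes, 8 have a probe set there, namely Il2ra, Il2rb, Il4ra, Il21r, Il6ra, Il6st, Il18r1 and Ifngr1, with 14 probe sets among 45141 on the array, while Il7r and Il2rg were not analysed here. The rule names genes by symbol and uses no threshold on their values, although the symbols were chosen with earlier results of these data known. The study hybridised RNA of sorted naive T cells from C57BL/6 mice to 16 single-colour arrays, in Tsc1-deficient cells (KO) and wild-type cells (WT). The groups are KO and WT unstimulated CD4 cells (3 arrays each), KO and WT CD4 cells stimulated for 4 h by plate-bound anti-CD3 and anti-CD28 (3 arrays each), and KO and WT unstimulated CD8 cells (2 arrays each). The sources used here do not give how Tsc1 was deleted, the age of the mice, or whether the arrays within a group are of different mice. P-values therefore reflect array-to-array spread alone, part of which may be technical. One sentence of the labels' treatment text names HIF1a-deficient mice, whereas every title and genotype entry names Tsc1.

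Tsc1 is a subunit of the complex that restrains mTORC1, the kinase complex that couples growth to nutrients and antigen signals. Cytokine receptors of the haematopoietin family pair a ligand-binding chain with a signalling chain, and bring Janus kinases (JAKs) together that phosphorylate STAT transcription factors. Il2ra raises the affinity of the IL-2 receptor, whose signalling chain Il2rb also serves IL-15. Il4ra and Il21r bind IL-4 and IL-21. Il6ra binds IL-6, and Il6st encodes gp130, the signalling chain shared by the IL-6 family. Il18r1 binds IL-18, belongs to the IL-1 receptor family and signals through the adaptor MyD88 rather than through JAKs. Ifngr1 is the ligand-binding chain of the interferon gamma receptor.

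Values are log2 signals as deposited, so a difference of 1 is a doubling. Each gene is given by its brightest probe set unless another is named, levels are not set against those of other genes, and the median of the whole table was 3.36. Replicate arrays correlated at 0.987 to 0.996 over all probe sets. Tsc1 itself was 1.77-fold lower in KO than in WT unstimulated CD4 cells, 2.09-fold lower in KO than in WT stimulated CD4 cells and 1.47-fold lower in KO than in WT CD8 cells, by 1 of its 3 probe sets (adjusted p 3.77e-05, 4.63e-06 and 0.00892). The second Tsc1 probe set overlapped between genotypes in each state. Its KO and WT means were 6.11 and 6.25 in unstimulated CD4, 6.41 and 6.62 in stimulated CD4, and 6.23 and 6.14 in CD8 cells. The third was below the table median in all groups. Cd8a was higher by 6.03 and Cd4 lower by 4.18 in KO CD8 than in KO CD4 cells, and Cd8a was higher by 5.09 and Cd4 lower by 4.60 in WT CD8 than in WT CD4 cells. All 5 activation genes checked were higher after stimulation in both genotypes. Their summed level was lower in KO than in WT in stimulated CD4 cells (12.36 to 12.63 in KO, 12.75 to 13.01 in WT) and in CD8 cells (10.06 to 10.67 in KO, 11.02 to 11.04 in WT), with 1 of the 5 called lower in each, Egr1 and Cd69. Of all genes 3.86% and 2.18% were called lower in KO in these 2 states. A list of 8 neutrophil genes was brighter on KO arrays: its summed level spanned 8.15 to 10.33 in KO and 6.71 to 8.10 in WT unstimulated CD4 cells, 8.49 to 10.23 in KO and 6.31 to 7.10 in WT stimulated CD4 cells, and 8.67 to 9.81 in KO and 6.83 to 8.34 in WT CD8 cells. Of these 8 genes 1, 4 and 0 were called higher in KO in these states, beside 3.96%, 5.59% and 3.64% of all genes. A mean below the table median was found for 1 of the 8 in each KO group and for 4 or 5 in the WT groups. The part of these differences in the results below was not tested. In RNA from pooled cells, fewer cells carrying a transcript and less of it per cell cannot be told apart.

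**Figure D1:**
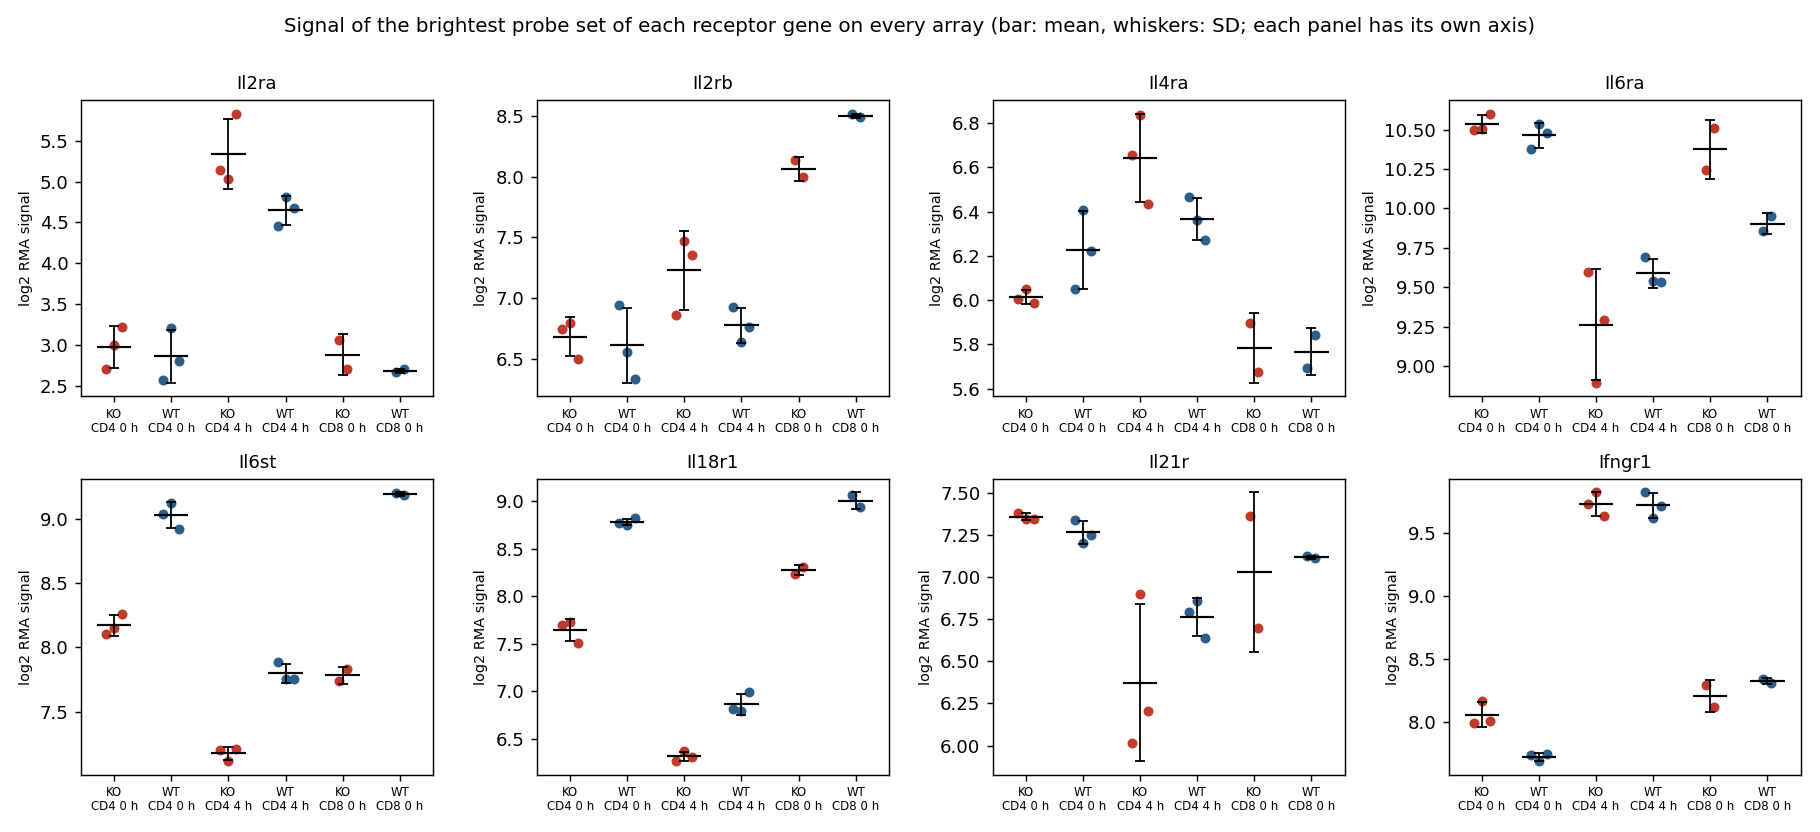
Log2 signal of the brightest probe set of each of the 8 receptor genes on every array, with KO (red) left of WT (blue) in unstimulated CD4, stimulated CD4 and unstimulated CD8 cells; each point is an array, bars are group means and whiskers SDs, and each panel has its own axis. The KO arrays of Il6st and Il18r1 lie below their WT arrays in all 3 cell states, while Il2ra and Ifngr1 are brightest after stimulation in both genotypes.

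In unstimulated CD4 cells, loss of Tsc1 went with lower Il18r1 and Il6st and slightly higher Ifngr1. Il18r1 was 7.70, 7.73 and 7.51 on the KO arrays, against 8.78, 8.75 and 8.82 on the WT arrays. The groups lay about 1 unit apart, with the spread within each far smaller. Il18r1 fell by 2.20-fold (log2 difference -1.14 ± 0.09, SE, adjusted p 8.58e-07). Il6st, the gp130 gene, was 8.10, 8.15 and 8.26 in KO and 9.04, 9.13 and 8.92 in WT cells, again without overlap, and fell by 1.81-fold (-0.86 ± 0.09, adjusted p 1.08e-05). Ifngr1 was 7.99, 8.17 and 8.01 in KO and 7.74, 7.69 and 7.75 in WT cells. Its arrays did not overlap either, and the difference of 0.33 ± 0.09 (1.26-fold higher in KO, adjusted p 0.0433) was small. The Ifngr1 call was lost when any 1 of the 6 arrays was left out (differences 0.28 to 0.36, adjusted p 0.0789 to 0.188).

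Those 3 calls, 1 higher and 2 lower in KO, stand among 8 genes, where 5.83% of all 17097 genes were called, 3.96% higher and 1.87% lower. The median difference of the 8 was 0.07 and that of all genes 0.01; the median size regardless of sign was 0.16 for the 8 and 0.12 for all genes. The other 5 receptor genes did not pass the test. Il6ra was 10.50, 10.51 and 10.60 in KO and 10.38, 10.53 and 10.48 in WT cells, so the IL-6-binding chain stayed within overlapping arrays where its signalling partner Il6st did not (difference 0.07, 95% interval -0.22 to 0.36). The intervals of the others were -0.31 to 0.54 for Il2ra, -0.27 to 0.41 for Il2rb, -0.46 to 0.04 for Il4ra and -0.30 to 0.48 for Il21r. Il2ra was below the table median in unstimulated KO and WT cells, at 2.70, 3.0 and 3.22 in KO and 2.57, 3.21 and 2.80 in WT CD4 cells. Of 3 CD8 lineage markers, 2 were also lower in KO unstimulated CD4 cells (summed level 8.95 to 9.12 in KO and 9.30 to 9.71 in WT), a list that reached 13.06 to 13.18 in KO and 12.98 to 13.11 in WT CD8 cells. Its part in the Il18r1 difference was not tested.

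The 250 bases before the transcription start of Il6st and of Il18r1 are shown because these 2 genes were lower in KO cells in all 3 cell states. They were taken from RefSeq (GRCm38.p6). Il6st lies on the plus strand at chr13:112463820-112464069, and Il18r1, at the most upstream of its 3 annotated starts, on the plus strand at chr1:40465302-40465551.
Il6st: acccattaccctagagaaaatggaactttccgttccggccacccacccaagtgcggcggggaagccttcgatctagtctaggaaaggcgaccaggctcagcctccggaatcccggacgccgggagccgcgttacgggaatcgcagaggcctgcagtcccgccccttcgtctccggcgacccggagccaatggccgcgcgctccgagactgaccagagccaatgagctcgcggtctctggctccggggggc
Il18r1: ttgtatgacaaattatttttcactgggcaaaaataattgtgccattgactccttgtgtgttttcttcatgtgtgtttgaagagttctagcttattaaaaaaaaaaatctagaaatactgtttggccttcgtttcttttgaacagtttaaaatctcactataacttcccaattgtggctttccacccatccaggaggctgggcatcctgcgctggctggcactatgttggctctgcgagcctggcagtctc
These windows were searched on both strands for a FOXO site (GTAAACA), a STAT-type GAS site (TTCNNNGAA), an AP-1 site (TGANTCA) and an E-box (CACGTG), and held none of these letters, so no base is in capitals. Of 32851 promoter windows of the same length in the table, 3.17% held the FOXO letters, 7.02% the GAS letters, 6.75% the AP-1 letters and 6.02% the E-box letters. RefSeq windows were found for 7 of the 8 receptor genes, 9 windows in all. Among the others, Il21r held a FOXO match on the minus strand (TGTTTAC, first base 38 bases before the start) and Il6ra an E-box (CACGTG, 24 bases before it). Il18r1 held a pair of GAS matches before its most downstream start, TTCTGGGAA at 219 and TTCCCAGAA at 152 bases. AP-1 letters were in 0 of the 9 windows, and Il2ra, Il4ra and Ifngr1 held none of the 4 motifs.

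In CD8 cells the same 2 receptor genes were called, and Il6st showed the wider gap. Il6st was 7.73 and 7.83 in KO cells and 9.20 and 9.19 in WT cells. Both KO arrays lay more than 1 unit under both WT arrays, and Il6st fell by 2.66-fold (-1.41 ± 0.11, adjusted p 9.61e-07). Il18r1 was 8.24 and 8.31 in KO and 9.07 and 8.95 in WT cells, without overlap, and fell by 1.66-fold (-0.73 ± 0.11, adjusted p 0.000825). Fitted on the 4 CD8 arrays alone, the Il18r1 difference was the same size with adjusted p 0.0501. The calls were thus 0 higher and 2 lower of 8, beside 3.64% higher, 2.18% lower and 5.82% in either direction over all genes; the median difference was -0.10 for the 8 and -0.01 for all genes. None of the other 6 receptor genes passed the test. Il6ra was 10.24 and 10.51 in KO and 9.85 and 9.95 in WT cells, a difference of 0.47 (95% interval 0.12 to 0.83, adjusted p 0.119). Il2rb was 8.13 and 7.99 in KO and 8.51 and 8.49 in WT cells (-0.44, interval -0.86 to -0.02, adjusted p 0.234). For both genes the arrays of the genotypes did not overlap, with KO above WT for Il6ra and below it for Il2rb. The other 2 Il2rb probe sets differed by 0.11 and 0.06, in the other direction, and were not called either. Ifngr1, called higher in KO unstimulated CD4 cells, differed by -0.12 in CD8 cells (interval -0.36 to 0.12, adjusted p 0.643). Its genotype difference was not shown to differ between the lineages (limma adjusted p 0.477). The summed level of 6 B cell genes was 8.79 to 8.88 in KO and 8.08 to 8.25 in WT CD8 cells, with 1 of the 6 called higher in KO, and its part in these differences was not tested.

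After 4 h of stimulation KO CD4 cells still had less Il6st and Il18r1 than WT cells, and more Il2ra. Il6st was 7.20, 7.11 and 7.21 in KO and 7.88, 7.76 and 7.75 in WT stimulated cells (1.54-fold lower, -0.62 ± 0.09, adjusted p 0.00023). Il18r1 was 6.27, 6.37 and 6.31 in KO and 6.81, 6.79 and 6.99 in WT stimulated cells (1.46-fold lower, -0.55 ± 0.09, adjusted p 0.000942). For both genes every KO array lay below every WT array. Il2ra was 5.15, 5.03 and 5.83 in KO and 4.46, 4.81 and 4.67 in WT stimulated cells, with KO replicate 3 the highest. The groups did not overlap and Il2ra was 1.62-fold higher (0.69 ± 0.20, adjusted p 0.0379). That call was lost without KO replicate 3 (difference 0.44, adjusted p 0.153), without any of the 3 WT arrays (0.60 to 0.77, adjusted p 0.0573 to 0.147), and with the 2 stimulated groups fitted alone (adjusted p 0.0926). Summed levels of 6 regulatory T cell genes, whose cells carry the IL-2 receptor alpha chain without stimulation, spanned 9.73 to 10.10 in KO and 9.38 to 9.70 in WT stimulated cells, with Ikzf2 and Nrp1 higher in KO (2 of 6) and Foxp3 at a difference of 0.47 that was not called. In the same comparison 3 of 8 myeloid genes were called higher in KO (summed level 6.97 to 7.26 in KO and 6.47 to 6.66 in WT), and the B cell sums were 6.84 to 7.12 in KO and 6.55 to 6.62 in WT with 0 of 6 genes called. Of all genes 5.59% were called higher in KO in this comparison. The regulatory T cell sums were also higher in KO without stimulation, where Il2ra was not called. They spanned 9.57 to 9.72 in KO and 9.34 to 9.48 in WT CD4 cells. In CD8 cells they spanned 9.47 to 9.57 in KO and 9.20 to 9.22 in WT. Of the 6 genes 1 was called higher in KO in each, beside 3.96% and 3.64% of all genes. The part of these marker lists in the receptor differences was not tested.

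These 3 calls of 8, 1 higher and 2 lower, compare with 9.45% of all genes, 5.59% higher and 3.86% lower. The median difference was -0.16 for the 8 and -0.0007 for all genes, and the median size 0.42 for the 8 and 0.13 for all genes. Several receptor genes that did not pass had wide spread among the KO arrays. Il2rb was 6.86, 7.47 and 7.36 in KO and 6.93, 6.64 and 6.76 in WT stimulated cells, where KO replicate 1 alone fell within the WT range (0.45, adjusted p 0.0969). Without it the difference was 0.64 with adjusted p 0.0157. Il6ra was 9.60, 8.89 and 9.30 in KO and 9.69, 9.54 and 9.53 in WT stimulated cells (-0.33, adjusted p 0.17), and without the same array -0.49 (adjusted p 0.0192). This array had a Gapdh 3-prime minus 5-prime difference of 0.96, and KO CD8 replicate 2 one of 0.64, against 0.02 to 0.40 on the other 14 arrays. Il21r was 6.02, 6.90 and 6.2 in KO and 6.79, 6.86 and 6.64 in WT stimulated cells (-0.39, adjusted p 0.234). There KO replicate 2 alone was above all WT arrays, and without it the difference was -0.65 (adjusted p 0.0131). Leaving out any other single array gave no Il21r call. The Gapdh difference of KO replicate 2 was 0.13, and it stands out by its Il21r value, so no conclusion is drawn from its omission. Il4ra differed by 0.28 (interval 0.03 to 0.52) and Ifngr1 by 0.01 (interval -0.19 to 0.21). The change in the Ifngr1 genotype difference with stimulation did not itself pass the test (-0.32, adjusted p 0.32).

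**Figure D2:**
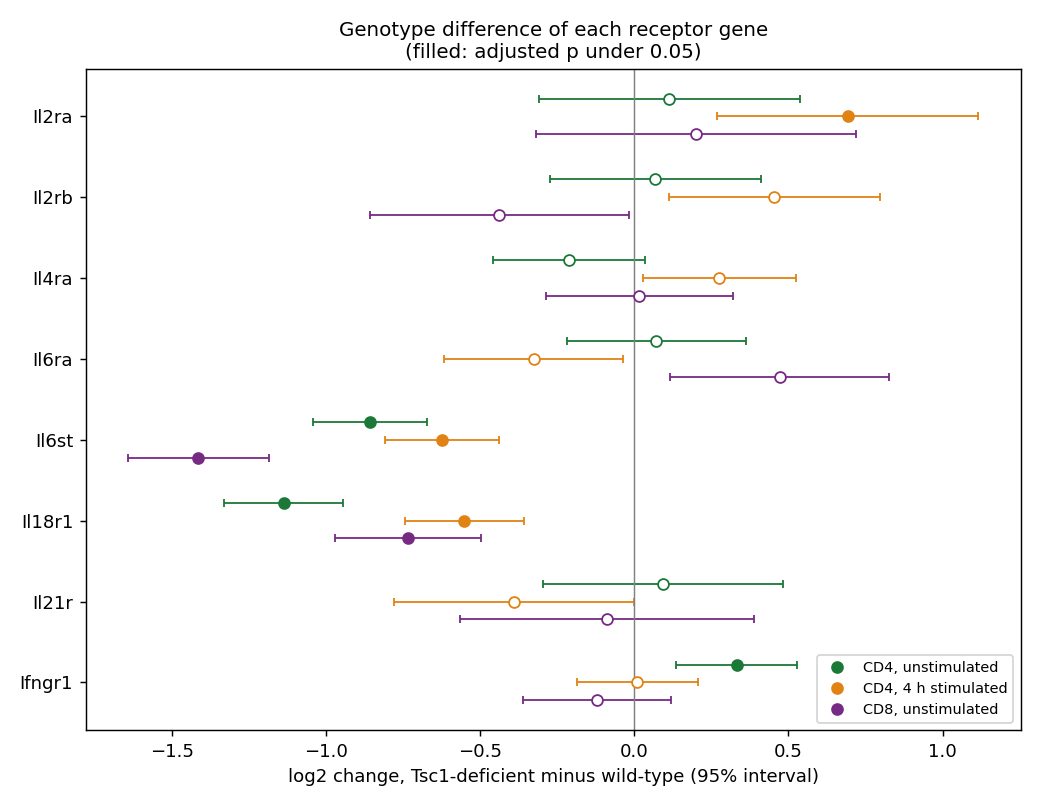
Log2 difference, KO minus WT, of each receptor gene in unstimulated CD4 (green), stimulated CD4 (orange) and CD8 cells (purple); whiskers are 95% intervals and filled points have adjusted p under 0.05. Il6st and Il18r1 are the 2 genes with filled points left of 0 in all 3 states, at -1.41 to -0.62 and -1.14 to -0.55.

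Stimulation for 4 h moved most receptor genes, in opposite directions by receptor. In KO cells all 8 passed the test, 4 higher and 4 lower, where 35.3% of all genes were called (13.8% higher, 21.5% lower). In WT cells 6 of 8 passed, 2 higher and 4 lower, where 31.9% of all genes were called (12.8% higher, 19.1% lower). The median size of the change was 1.13 in KO and 1.05 in WT cells for the 8 genes, and 0.19 in KO and 0.18 in WT cells over all genes. The summed level of 5 general T cell genes was 12.35 to 12.63 in KO stimulated and 13.90 to 13.96 in KO unstimulated cells, and 12.72 to 12.91 in WT stimulated and 13.84 to 13.87 in WT unstimulated cells. Its part in the changes was not tested.

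Il2ra, the inducible affinity chain of the IL-2 receptor, rose 5.16-fold in KO cells (2.37 ± 0.20, adjusted p 5.3e-08) and 3.46-fold in WT cells (1.79 ± 0.20, adjusted p 1.78e-06). Both folds rest on unstimulated values below the table median. Ifngr1 averaged 9.73 ± 0.10 in KO stimulated and 8.06 ± 0.10 in KO unstimulated cells (SD, n = 3 each), and 9.72 ± 0.10 in WT stimulated and 7.73 ± 0.03 in WT unstimulated cells (SD, n = 3 each). It rose 3.18-fold in KO (1.67 ± 0.09, adjusted p 4.68e-10) and 3.98-fold in WT cells (1.99 ± 0.09, adjusted p 6.27e-11), to levels of the 2 genotypes that overlapped. Il4ra was 6.66, 6.84 and 6.44 in KO stimulated and 6.01, 6.05 and 5.99 in KO unstimulated cells, and rose 1.55-fold (0.63 ± 0.12, adjusted p 0.000315). In WT cells it was 6.47, 6.36 and 6.27 stimulated and 6.05, 6.41 and 6.22 unstimulated, with overlap (0.14, interval -0.11 to 0.39, adjusted p 0.439). Il2rb rose 1.46-fold in KO cells (0.55 ± 0.16, adjusted p 0.0124), a call lost without unstimulated replicate 3 or stimulated replicate 2 or 3 (0.43 to 0.48, adjusted p 0.0529 to 0.0716), and differed by 0.16 in WT cells (interval -0.18 to 0.51, adjusted p 0.532).

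The receptor genes that fell were those of IL-18, IL-6 and IL-21. Il18r1 fell by 2.52-fold in KO (-1.33 ± 0.09, adjusted p 4.56e-09) and by 3.78-fold in WT cells (-1.92 ± 0.09, adjusted p 8.38e-11). Both chains of the IL-6 receptor fell together. Il6st fell by 2.0-fold in KO (-1.0 ± 0.09, adjusted p 8.68e-08) and by 2.35-fold in WT cells (-1.23 ± 0.09, adjusted p 9.6e-09), and Il6ra by 2.42-fold in KO (-1.27 ± 0.14, adjusted p 9.4e-07) and 1.83-fold in WT cells (-0.88 ± 0.14, adjusted p 6.87e-05). Il21r fell by 1.98-fold in KO (-0.99 ± 0.18, adjusted p 0.000329) and 1.42-fold in WT cells (-0.50 ± 0.18, adjusted p 0.047). The WT call of Il21r was lost without any 1 of the 6 arrays (-0.55 to -0.44, adjusted p 0.0671 to 0.146). Il4ra and Il21r are next to each other on chromosome 7 with 0 protein-coding genes between them in the RefSeq table, and in KO cells Il4ra rose while Il21r fell.

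**Figure D3:**
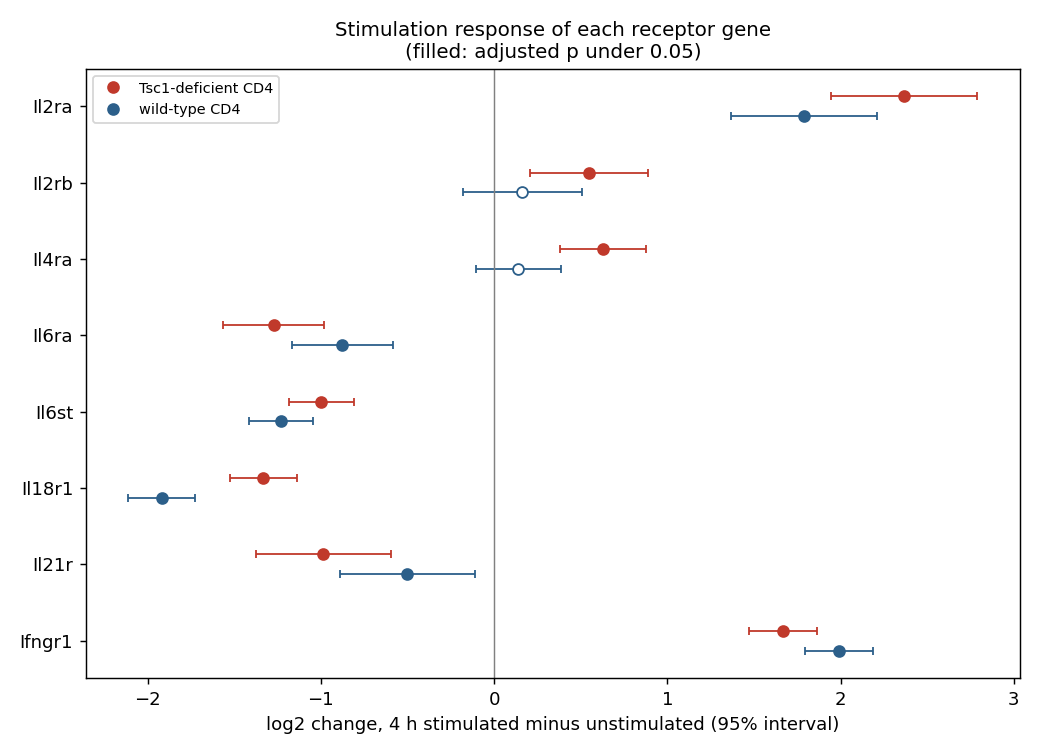
Log2 change with 4 h of stimulation in KO (red) and WT (blue) CD4 cells for each receptor gene; whiskers are 95% intervals and filled points have adjusted p under 0.05. Il2ra and Ifngr1 lie right of 1 in both genotypes, while Il6ra, Il6st, Il18r1 and Il21r lie left of 0.

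The difference between the genotypes in the response to stimulation passed the test for Il18r1 alone among the 8, where 1.2% of all genes were called (0.544% higher, 0.661% lower). Its change was -1.33 in KO and -1.92 in WT cells, a difference of 0.59 ± 0.13 (interval 0.31 to 0.86, adjusted p 0.0371). WT cells started higher and lost more. The call was lost without any 1 of 9 of the 12 CD4 arrays (0.52 to 0.63, adjusted p 0.0576 to 0.112) and with all probe sets tested (adjusted p 0.0714). The other 7 genes did not pass, so the calls that Il4ra and Il2rb gained in KO cells were not shown to differ from WT: the difference was 0.49 for Il4ra (interval 0.14 to 0.84, adjusted p 0.207) and 0.39 for Il2rb (interval -0.10 to 0.87, adjusted p 0.553). For Il2ra it was 0.58 (interval -0.02 to 1.18) and for Il6st 0.23 (interval -0.03 to 0.50).

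CD8 cells were set against CD4 cells within each genotype, unstimulated. The Gapdh 3-prime minus 5-prime difference was 0.28 and 0.64 on KO CD8 arrays, and 0.39 and 0.40 on WT CD8 arrays. On unstimulated CD4 arrays it was 0.12 to 0.23 in KO and 0.11 to 0.20 in WT. Every CD8 array was thus above every unstimulated CD4 array. The part of this in the lineage differences was not tested, and it cannot be told apart from lineage. Il2rb, which carries IL-2 and IL-15 signals, was the most different of the 8. It was 8.13 and 7.99 in KO CD8 and 6.74, 6.80 and 6.5 in KO CD4 cells, and 8.51 and 8.49 in WT CD8 and 6.94, 6.55 and 6.34 in WT CD4 cells. The lineages lay more than 1 unit apart in both genotypes, 2.61-fold higher in KO CD8 (1.38 ± 0.18, adjusted p 9.44e-05) and 3.71-fold higher in WT CD8 cells (1.89 ± 0.18, adjusted p 2.79e-06). Among 6 NK cell genes, which mark cells that also carry Il2rb, Nkg7 alone was called (summed level 11.38 to 11.65 in KO CD8 and 7.53 to 7.76 in KO CD4 cells, 11.37 to 11.42 in WT CD8 and 7.23 to 7.72 in WT CD4 cells), and Ncr1, Klrb1c, Klra8 and Klrc1 were below the table median in all 6 groups. Il18r1 was 1.55-fold higher in KO CD8 than KO CD4 cells (0.63 ± 0.10, adjusted p 0.000824), and in WT cells the difference was 0.23 (adjusted p 0.293). Ifngr1 was 1.52-fold higher in WT CD8 than WT CD4 cells (0.60 ± 0.10, adjusted p 0.00154), with 0.15 in KO cells (adjusted p 0.492).

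On the lower side, Il6st was called in KO CD8 against KO CD4 cells (-0.39 ± 0.10, adjusted p 0.0226), a call lost without 4 of the 5 arrays in turn (-0.44 to -0.34, adjusted p 0.0554 to 0.1) and with those groups fitted alone (adjusted p 0.0953). In WT cells Il6st differed by 0.17 (adjusted p 0.475). Il6ra was called lower in WT CD8 cells (-0.56 ± 0.15, adjusted p 0.0441), a call lost without any 1 of the 5 arrays (-0.61 to -0.51, adjusted p 0.0698 to 0.289). These were 3 of 8 in each genotype, 2 higher and 1 lower, where 6.68% of genes were called in KO (3.08% higher, 3.6% lower) and 5.04% in WT cells (2.47% higher, 2.57% lower). Il4ra missed the threshold in WT cells (-0.46, adjusted p 0.0549) and passed without WT CD4 replicate 1 (-0.55, adjusted p 0.0385). Of the 8 receptor genes 0 passed limma's test of the genotype difference between lineages, which called 0.117% of all genes (0.0702% higher, 0.0468% lower); for Il6st it was -0.56 (interval -0.85 to -0.26, adjusted p 0.253), so a deeper fall in CD8 than in CD4 cells was not shown. The unadjusted limma p for Il6st was 0.000987, and 3 of the 8 genes had an unadjusted p under 0.05. The share of all genes at that unadjusted level was not counted, so no conclusion is drawn from this count.

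Ordered by group mean, Il18r1 was lowest in KO stimulated CD4 cells, then WT stimulated CD4, KO unstimulated CD4, KO CD8, WT unstimulated CD4 and WT CD8 cells, and no neighbouring groups overlapped. Il6st had the order KO stimulated CD4, KO CD8, WT stimulated CD4, KO unstimulated CD4, WT unstimulated CD4 and WT CD8 cells. In it the ranges of KO CD8 and WT stimulated CD4 cells overlapped, at 7.78 ± 0.07 (SD, n = 2) and 7.80 ± 0.07 (SD, n = 3), and no other neighbours did. Ifngr1 ran from WT unstimulated CD4 up through KO unstimulated CD4, KO CD8, WT CD8, WT stimulated CD4 and KO stimulated CD4 cells. Its overlaps were between KO unstimulated CD4 and KO CD8, and between the 2 stimulated groups. The 4 unstimulated groups of Il2ra all overlapped with their neighbours, whereas the WT and KO stimulated groups stood above them and apart. Il2rb separated KO CD8 and WT CD8 cells from the 4 CD4 groups, which overlapped with their neighbours. For Il4ra the CD8 groups were lowest and KO stimulated CD4 cells highest. For Il6ra the KO and WT stimulated groups overlapped at the bottom, the CD8 groups were in the middle and KO unstimulated CD4 cells at the top. Il21r was lowest in KO stimulated CD4 cells and highest in KO unstimulated CD4 cells, and the 4 lowest groups overlapped with their neighbours.

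Of the 8 genes, 4 have several probe sets, and these were compared in a fit over all non-control probe sets. The second Il6st probe set averaged 4.69 ± 0.08 in KO and 5.61 ± 0.15 in WT unstimulated CD4 cells (SD, n = 3 each). It gave genotype differences of -0.93, -0.93 and -1.95 in unstimulated CD4, stimulated CD4 and CD8 arrays (adjusted p 0.00486, 0.00312 and 6.55e-05), each lower in KO like the brightest. The third Il6st probe set was dim, at 3.53 ± 0.16 in KO and 3.81 ± 0.09 in WT unstimulated CD4 cells, and was not called in these comparisons (-0.28, -0.13 and -0.20). All 3 Il2rb probe sets were called higher in CD8 than in CD4 cells in both genotypes, by 1.38, 2.05 and 1.52 in KO and by 1.89, 2.09 and 1.68 in WT cells. For stimulation in KO cells the brightest Il2rb probe set alone was called. In stimulated cells the second was higher in KO than in WT by 0.76 (adjusted p 0.0149), while the brightest and the third, at 0.45 and 0.35, were not called. Both probe sets of Il2ra rose with stimulation in both genotypes, the second by 1.29 in KO and 1.21 in WT cells, and neither passed for genotype in stimulated cells over all probe sets (adjusted p 0.0639 and 0.134). Both Il6ra probe sets fell with stimulation, the second with changes of -1.02 in KO and -0.58 in WT cells. The second Il6st probe set fell with stimulation too (-1.01 in KO and -1.01 in WT cells), and the third, dim one did not (0.22 in KO and 0.06 in WT cells, neither called).

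**Figure D4:**
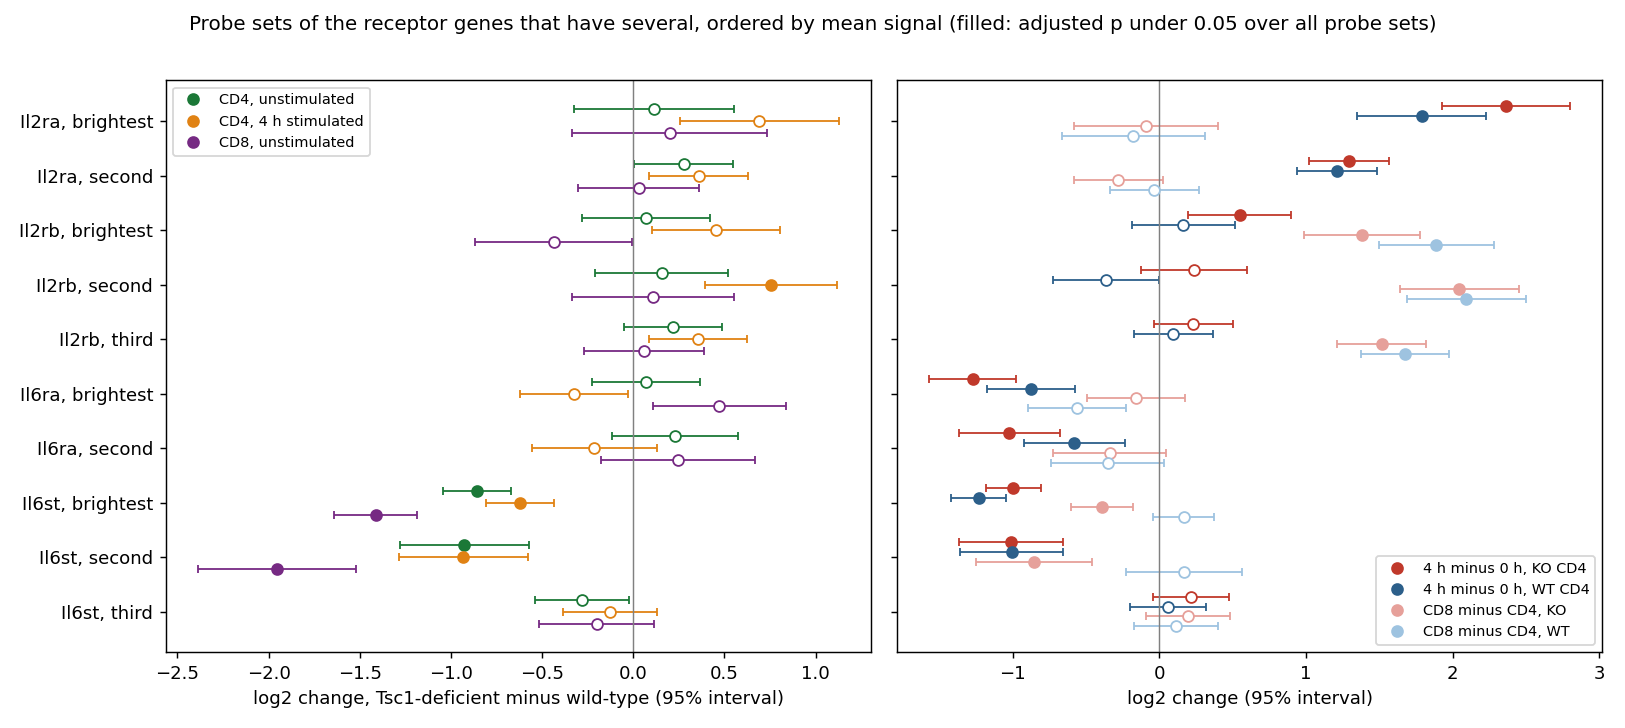
Log2 differences of every probe set of the 4 receptor genes that have several, ordered from the brightest: genotype differences (KO minus WT) on the left, stimulation and lineage differences on the right; whiskers are 95% intervals and filled points have adjusted p under 0.05 over all probe sets. The 2 brighter Il6st probe sets are filled in all 3 genotype comparisons, and the third, dim one is in none.

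The IL-18 and interferon gamma receptors each have a partner chain on the array, whose genotype call was in another direction or state than the binding chain's. In CD8 cells the KO mean was below the WT mean for both chains of each receptor, but Il18r1 and Ifngr2 alone were called. The Il18rap difference there was -0.22, with overlapping arrays, and the Ifngr1 difference was -0.12. The Ifngr1 call in unstimulated CD4 cells was lost without any 1 array. Il18rap, the accessory chain encoded next to Il18r1 on chromosome 1, was 4.34, 4.44 and 4.64 in KO and 3.61, 3.75 and 3.65 in WT stimulated cells. All KO arrays were above all WT arrays, the reverse of Il18r1, and Il18rap was 1.74-fold higher (0.80 ± 0.16, adjusted p 0.004). Its WT mean there, 3.67, was close to the table median of 3.36. In unstimulated CD4 cells it differed by 0.44 (adjusted p 0.14) and in CD8 cells by -0.22 (adjusted p 0.623). It was brighter in the CD8 lineage, by 0.67 in KO (adjusted p 0.033, with KO CD8 arrays at 5.36 and 4.58) and 1.33 in WT cells (adjusted p 0.000137). Ifngr2, the signalling partner of Ifngr1, was 6.08 and 6.00 in KO and 6.91 and 6.69 in WT CD8 cells, without overlap (-0.76, adjusted p 0.0415). That call was lost without any 1 of the 4 arrays (-0.87 to -0.65, adjusted p 0.0943 to 0.268), and the difference was -0.43 (adjusted p 0.128) with the gene's probe sets averaged. With stimulation Ifngr2 changed by 0.31 in KO (adjusted p 0.198) and 0.52 in WT cells (adjusted p 0.0266), where Ifngr1 rose by more than 1 unit.

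**Figure D5:**
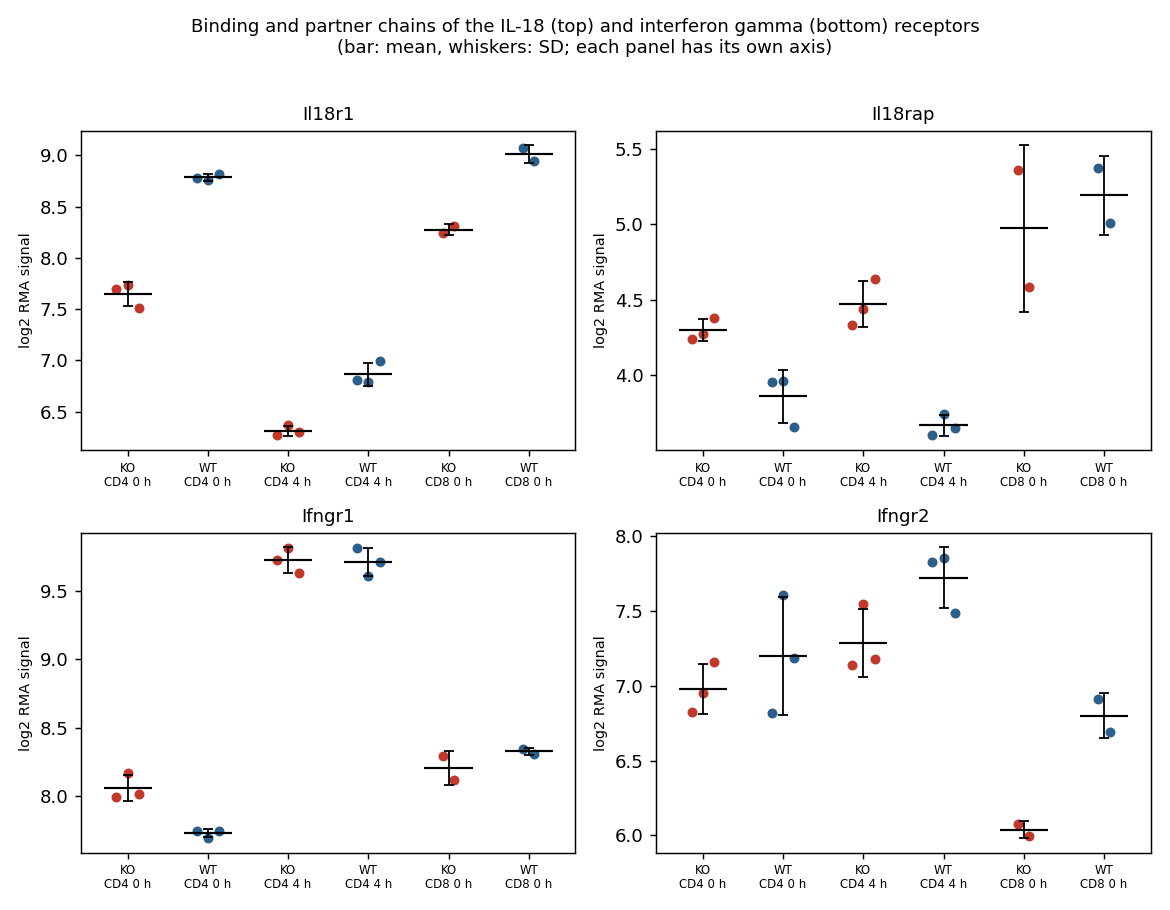
Log2 signal on every array of Il18r1 and its accessory chain Il18rap (top) and of Ifngr1 and its partner Ifngr2 (bottom), KO (red) left of WT (blue); bars are means, whiskers SDs, and each panel has its own axis. In stimulated CD4 cells the KO arrays lie below the WT arrays for Il18r1 and above them for Il18rap.

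Of 35 other cytokine receptor chains listed, 29 were measured. In KO against WT, 2 were called higher and 1 lower in unstimulated CD4 cells, 4 higher and 2 lower in stimulated CD4 cells, and 1 higher and 4 lower in CD8 cells; their median differences were -0.03, 0.05 and -0.11. The shares of all genes called in either direction were 5.83%, 9.45% and 5.82%. Il10ra, the IL-10-binding chain, rose in KO in all 3 states, by 0.57, 0.67 and 0.99 (adjusted p 0.00642, 0.00137 and 0.000494), against the direction of Il6st and Il18r1. Il12rb1, shared by the IL-12 and IL-23 receptors, was higher by 1.08 in KO unstimulated CD4 cells (adjusted p 0.00584). Its WT mean there, 3.44, was close to the table median, and its KO arrays spread from 3.96 to 5.09. With stimulation 3 of the 29 rose and 10 fell in KO cells, and 2 rose and 9 fell in WT cells, beside 35.3% of all genes called in KO and 31.9% in WT cells. Il27ra, which pairs with gp130 to sense IL-27, fell by 1.86 in KO (adjusted p 8.91e-10) and 1.68 in WT cells on the log2 scale (adjusted p 3.21e-09), as Il6st did. Il10rb, shared by receptors of the IL-10 family, fell by 1.43 in KO (adjusted p 8.95e-06) and 1.61 in WT cells (adjusted p 3.17e-06).

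Further lists stand beside these shares of all genes called for genotype: 5.83% in unstimulated CD4, 9.45% in stimulated CD4 and 5.82% in CD8 cells. Downstream of the receptors, 10 of 11 JAK and STAT genes were measured. Of these 0 were called for genotype in unstimulated CD4 and in CD8 cells, and 2 were higher in KO stimulated CD4 cells, Stat2 by 0.89 (adjusted p 0.00532) and Jak2 by 0.38 (adjusted p 0.0479), the Jak2 call being lost without any of 5 of the 6 arrays. With stimulation 5 rose and 2 fell in KO, and 7 rose and 2 fell in WT cells, where 35.3% of all genes were called in KO and 31.9% in WT cells. Stat5a, which acts below the IL-2 receptor, rose by 1.37 in KO (adjusted p 4.63e-07) and 1.21 in WT cells (adjusted p 2.34e-06), alongside Il2ra. Jak3, the kinase of receptors that use the common gamma chain, fell by 1.81 in KO (adjusted p 9.62e-08) and 2.14 in WT cells (adjusted p 1.83e-08). Among 4 measured genes of the IL-18 adaptor pathway 0 were called for genotype in the 3 states, and Irak1, a kinase recruited by MyD88, fell with stimulation by 0.65 in KO (adjusted p 3.94e-05) and 0.59 in WT cells (adjusted p 0.000139). Of 13 measured ligand genes 0 were called for genotype without stimulation and 3 were higher in KO stimulated cells. Ifng, whose receptor chain Ifngr1 did not pass there, was higher by 2.07 (adjusted p 2.89e-05), and Il4 by 1.69 (adjusted p 2.51e-05) where Il4ra did not pass. The Il4 mean in WT stimulated cells, 3.02, was below the table median. Lif, a gp130 ligand, was higher by 0.68 (adjusted p 0.0382), which became 0.23 (adjusted p 0.233) with its probe sets averaged, a call also lost without any of 4 of the 6 arrays (0.47 to 0.65, adjusted p 0.113 to 0.192). Of 8 transcription factors and proteases tied to these receptors, Gfi1, a transcriptional repressor, was the 1 called in unstimulated CD4 cells (1.01 higher in KO, adjusted p 0.00163). It rose with stimulation by 1.15 in KO (adjusted p 4.01e-05) and 2.12 in WT cells (adjusted p 4.84e-08). In stimulated cells 2 of these 8 were called lower in KO, Klf2 with a difference of -0.44 (adjusted p 0.0151), lost without 1 of the 6 arrays, and Ets1 with -0.39 (adjusted p 0.0241), lost without any of 3, and in CD8 cells 0 were called.

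The genes whose signal followed each receptor gene most closely over the 16 arrays were sought among some 3541 genes that span at least 1 unit between group means. These are descriptions over arrays that share their groups, with no test. Il6st went with Jade1 (Pearson r 0.974) and Tnk2 (0.972), and Il18r1 with Fam98c and Prex1 (both 0.966). For Il2ra they were Spata2 (0.981) and Aamp (0.979), and for Ifngr1 Zfp52 (0.987) and Gch1 (0.981). Il2rb went with Cxcr6 (0.954) and Sytl3 (0.922), Il6ra with Mtmr4 (0.962) and Gpsm3 (0.953), Il4ra with Tnfsf11 (0.937) and H2bc4 (0.935), and Il21r with Snapin (0.950) and Ccdc51 (0.947). The arrays share their normalization and, for most of the 8 genes, the step between unstimulated and stimulated cells.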

How the data were processed

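The labels' genotype, cell type and stimulation entries put 16 arrays into 6 groups. The values are log2 signals that the authors made with RMA in Partek 6.5, per the submitters' processing notes, and they were used as deposited; scans were not used. RMA fits probe sets across arrays and quantile normalizes them, so a shift of all genes would not be seen. The platform's annotation gives 1 gene for 28898 of the 45141 probe sets, several for 551 and none for 15588, besides 104 controls; 28689 were checked by Entrez identifier against RefSeq, and 0 symbols changed. The probe set with the highest mean stands for its gene (17097 genes).

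Group means were fitted in 1 linear model with limma 3.58.1 in R 4.3.3 (10 residual degrees of freedom, prior degrees of freedom 6.23, prior SD 0.146), and p-values were adjusted over all genes within each of 9 comparisons by the Benjamini-Hochberg method. A gene was called at adjusted p under 0.05, and "rose", "fell" and "called" refer to this. Summed levels of marker lists are log2 of the summed linear signals. All receptor genes and up to 4 called members of each list by size were open to naming. The receptor genes and lists were chosen with earlier results of these data known. The model was tested on simulated data. The number of arrays limits precision; depth does not apply. The alternatives tried were a mean over a gene's probe sets, a test of every probe set, a filter on dim genes, renormalization, median centring, a trended prior, the compared groups alone, arrays with high Gapdh differences or each array left out, and a block of arrays with adjacent label codes.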

Additional observations from a re-analysis of the deposited data

Results flagged for a closer look

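The response of Il18r1 to stimulation differed between the genotypes by 0.59 on the log2 scale (KO minus WT, limma adjusted p 0.0371), with changes of -1.33 in KO and -1.92 in WT cells. The call was lost without any 1 of 9 of the 12 CD4 arrays (adjusted p 0.0576 to 0.112) and with all probe sets tested (adjusted p 0.0714). In each genotype all 3 stimulated arrays lay below all 3 unstimulated arrays. Il18r1 is far above the table median in all groups.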

How the results depend on the processing

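Over 72 receptor gene results and 1128 alternative values, 1068 kept their side of the threshold, 49 lost the call and 11 gained it. A call in the opposite direction was found in 0 of them, while small differences that were not called could change sign. The Il6st calls for genotype held under all alternatives in all 3 states, and so did those of Il18r1 except in CD8 cells fitted alone. Receptor genes called for genotype were 5 in stimulated CD4 cells without the 2 arrays with high Gapdh differences (3 with all arrays), 1 in CD8 cells fitted alone (2), and for genotype by stimulation 0 with all probe sets (1; the Il18r1 unadjusted p was 0.000323). Without single arrays the receptor genes called were 2 in unstimulated CD4, 2 to 5 in stimulated CD4 and 2 in CD8 cells for genotype, 7 to 8 in KO and 5 in WT cells for stimulation, 0 to 1 for genotype by stimulation, 2 to 3 in KO and 2 to 3 in WT for lineage, and 0 for genotype by lineage.

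Genes called for genotype moved to 1723 in unstimulated CD4 cells without the 2 arrays (997), to 2564 with all probe sets and 823 alone in stimulated CD4 cells (1616), and to 269 alone in CD8 cells (995). For stimulation all probe sets gave 13683 in KO (6041) and 12112 in WT (5451), and for WT lineage 1345 (862). Without the 2 arrays there were 325 for genotype by stimulation (206), 1324 for WT lineage and 31 for genotype by lineage (20). Leaving out single arrays gave 589 to 704, 1062 to 1715 and 305 to 921 for genotype in unstimulated CD4, stimulated CD4 and CD8 cells, 5452 to 6070 in KO and 4853 to 4938 in WT for stimulation, 103 to 287 for genotype by stimulation, 511 to 1508 in KO and 416 to 620 in WT for lineage, and 7 to 24 for genotype by lineage. More probe sets than genes enter with all probe sets; the cause of the other shifts was not tested. The labels give no replicate numbers; the adjacent codes of unstimulated and stimulated CD4 arrays, fitted as a random block (correlation 0.03), changed no call of a receptor gene. Dim genes such as unstimulated Il2ra are limited by background.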
